A study of Mus musculus with 2 samples.

Results

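The genes 2310034C09Rik, 2310061N02Rik, 2310057N15Rik and 2310079G19Rik lie together on mouse chromosome 16, among genes for keratin-associated proteins, and carry Riken clone names in the tables. They were followed in spatial transcriptomes of mouse tongue, in which a frozen section lies on an array of barcoded spots and each transcript molecule is counted by its unique molecular identifier (UMI). The members were taken by name, and all 4 of 4 were found among the 865 genes listed for the WT section, while 0 of 4 stood among the 298 genes listed for the H3K36M section (879 genes in either table). The H3K36M section came from a mouse of genotype Krt14-Cre(+); LSL-H3K36M, and the WT section from a mouse of genotype Krt14-Cre(-); LSL-H3K36M. Both carried the LSL-H3K36M allele, and both had been treated with 4NQO, a chemical carcinogen for the oral epithelium. Cre under the Krt14 promoter limits the mutant histone to tissues that express keratin 14, and the labels give neither age nor strain. There was 1 section per genotype and no replicate, so all values are descriptions of these sections, and intervals in parentheses are 95% intervals for counting error only.

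Keratin-associated proteins are small proteins of the hair shaft that cross-link bundles of hair keratins, largely through disulfide bonds between cysteines. They are encoded by intronless genes in dense clusters, and their names follow sequence families. Filiform papillae, the keratinised cones on the upper surface of the tongue, are known to make hair-type keratins as well as the cornified proteins of ordinary stratified epithelium.

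Each of the 4 genes is annotated as protein-coding, with 1 transcript of 1 exon (GENCODE M21, GRCm38). 2310079G19Rik (ENSMUSG00000045331) spans chr16:88626786-88627666 on the minus strand and has 185 codons. 2310061N02Rik (ENSMUSG00000050704) spans chr16:88707169-88707962 on the minus strand and has 174 codons. 2310034C09Rik (ENSMUSG00000068078) spans chr16:88758847-88759792 on the plus strand and has 214 codons. 2310057N15Rik (ENSMUSG00000048830) spans chr16:88773179-88774206 on the minus strand and has 200 codons. The whole stretch covers 147 kb. From 2310079G19Rik onward the gaps between neighbours among the 4 are 79.5 kb, 50.9 kb and 13.4 kb, with 3, 2 and 0 other annotated genes inside them.

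The 120 bases before the start of each gene are shown because they carry TATATAA, the one of 6 searched motifs present upstream of all 4 genes. They are from RefSeq (GRCm38.p6) and run 5′ to 3′ on the strand of the gene, and capitals mark this form of the TATA box. They cover chr16:88627667-88627786 (minus strand), chr16:88707963-88708082 (minus), chr16:88758727-88758846 (plus) and chr16:88774207-88774326 (minus), in the order shown.
2310079G19Rik: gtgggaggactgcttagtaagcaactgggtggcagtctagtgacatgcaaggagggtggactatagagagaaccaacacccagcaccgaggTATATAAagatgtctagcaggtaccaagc
2310061N02Rik: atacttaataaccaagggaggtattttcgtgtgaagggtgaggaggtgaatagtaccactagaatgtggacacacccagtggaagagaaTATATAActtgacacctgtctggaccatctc
2310034C09Rik: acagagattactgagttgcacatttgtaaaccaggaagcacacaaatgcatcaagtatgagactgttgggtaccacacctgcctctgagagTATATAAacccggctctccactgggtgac
2310057N15Rik: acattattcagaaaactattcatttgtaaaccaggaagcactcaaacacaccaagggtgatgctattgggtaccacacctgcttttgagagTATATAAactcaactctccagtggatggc

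TATATAA began 31 bases before the start of 2310061N02Rik and 29 bases before the start of the other 3 genes, on the sense strand. It also stood on the sense strand upstream of the neighbouring genes Krtap13 (51 bases before the start) and Krtap13-1 (54 bases). It is therefore not particular to the 4 genes. This word was chosen after the promoters had been read. It stood on the sense strand between 40 and 20 bases before the start in 0.578% of the 32851 promoters of the RefSeq table, and anywhere on either strand of the 300-base window in 3.24%. The shorter TATA box TATAAA, which overlaps it, was present in 3 of the 4 windows (not 2310061N02Rik), against 13.6% of all promoters. TTTATNG, an AT-rich core of the kind bound by homeobox factors, was present on the antisense strand in 3 of 4 (10.9% of all promoters). It was not found in 2310079G19Rik, and where present it lay 243 bases (2310061N02Rik), 165 bases (2310034C09Rik) and 128 bases (2310057N15Rik) before the start. CTTTGA (the LEF1 and TCF core, 16% of all promoters), TGANTCA (AP-1, 7.81%) and CCNNNAGG (an AP-2-like word, 53.8%) were in none of the 4 windows on either strand. A match is a description of letters, and binding was not measured.

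The H3K36M section was the shallower of the pair, with 252 spots under tissue and a median of 763.5 UMIs per spot, against 364 spots and 4899 UMIs in the WT section. UMI counts behind the deposited cluster averages were recovered from the tables and came to 570807 in 4 H3K36M clusters and 2283314 in 3 WT clusters. Levels are given below as UMIs per 10000 UMIs of a cluster. The tables hold genes whose average reached 1 in one cluster or more, a limit equal to 7.24 UMIs per 10000 for H3K36M and 1.99 for WT. These limits and all rates rest on an inferred median of 1380.5 UMIs per clustered spot in H3K36M and 5027 in WT. Both differ from the medians of the metrics, H3K36M by more. Squamous markers were listed in both sections (6 of 6 each), while fibroblast (0 of 4) and endothelial markers (0 of 2) were listed in neither. Krt14, whose promoter drives Cre, had 42.8 to 108 UMIs per 10000 across the H3K36M clusters and 73.9 to 92.8 across the WT clusters.

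In the WT section the 4 genes were high in cluster 1 and cluster 3 and low in cluster 2. Cluster 1 is the region with most hair-type papilla transcripts: 6 of 7 such markers were listed, and they took 0.625% of its UMIs, against 0.0991% in cluster 2 and 0.552% in cluster 3. It also had the largest share of differentiated squamous markers, at 8.12%, against 5.35% in cluster 2 and 6.74% in cluster 3. It is therefore not a region of papilla transcripts alone. Together the 4 genes gave 2315 UMIs in cluster 1, 117 in cluster 2 and 154 in cluster 3, or 27.0 (25.9 to 28.2), 0.864 (0.714 to 1.04) and 21.2 (18.0 to 24.8) UMIs per 10000. Cluster 1 thus held 89.5% of their UMIs but 37.5% of all UMIs of the section, and cluster 2 held 4.52% of theirs but 59.3% of all.

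2310034C09Rik was the most abundant of the 4. It gave 1257 UMIs in cluster 1, 60 in cluster 2 and 85 in cluster 3, that is 14.7 (13.9 to 15.5), 0.443 (0.338 to 0.570) and 11.7 (9.33 to 14.4) UMIs per 10000. Its rate in cluster 1 was 33.1 times that in cluster 2 (25.6 to 43.7) and 1.26 times that in cluster 3 (1.01 to 1.58). The step between clusters 1 and 3 was therefore small beside the step from either to cluster 2.

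2310061N02Rik was the next in level. It gave 456 UMIs in cluster 1, 19 in cluster 2 and 34 in cluster 3, or 5.33 (4.85 to 5.84), 0.140 (0.0845 to 0.219) and 4.67 (3.24 to 6.53) UMIs per 10000. The ratio of its rates was 38.0 for cluster 1 over cluster 2 (24.0 to 63.6) and 1.14 for cluster 1 over cluster 3 (0.804 to 1.67). Clusters 1 and 3 could not be told apart for this gene at this depth.

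2310057N15Rik, for which RefSeq gives the synonym Krtap13-1, gave 378 UMIs in cluster 1, 17 in cluster 2 and 21 in cluster 3. Its rates were 4.41 (3.98 to 4.88), 0.126 (0.0731 to 0.201) and 2.89 (1.79 to 4.41) UMIs per 10000. The rate in cluster 1 was 35.2 times that in cluster 2 (21.7 to 61.0) and 1.53 times that in cluster 3 (0.986 to 2.50). The deposited tables use Krtap13-1 for another gene of the same locus, so the 2 are kept apart here by gene identifier.

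2310079G19Rik was the least abundant in cluster 1. It gave 224 UMIs there, 21 in cluster 2 and 14 in cluster 3, or 2.62 (2.28 to 2.98), 0.155 (0.0960 to 0.237) and 1.92 (1.05 to 3.23) UMIs per 10000. Its cluster 1 rate was 16.9 times that in cluster 2 (10.8 to 27.8), and 1.36 times that in cluster 3 (0.794 to 2.53). The first of these ratios was below the 33.1 to 38.0 of the other 3 genes, though the intervals overlap. The share of the 4 genes' UMIs that came from 2310079G19Rik was 9.68% in cluster 1 (8.54 to 10.9), 17.9% in cluster 2 (12.0 to 25.9) and 9.09% in cluster 3 (5.49 to 14.7; Wilson intervals). The intervals of clusters 1 and 2 did not overlap, whereas those of the other 3 genes did. For example, 2310034C09Rik made up 54.3%, 51.3% and 55.2% of the UMIs of the 4 genes in clusters 1, 2 and 3.

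**Figure D1:**
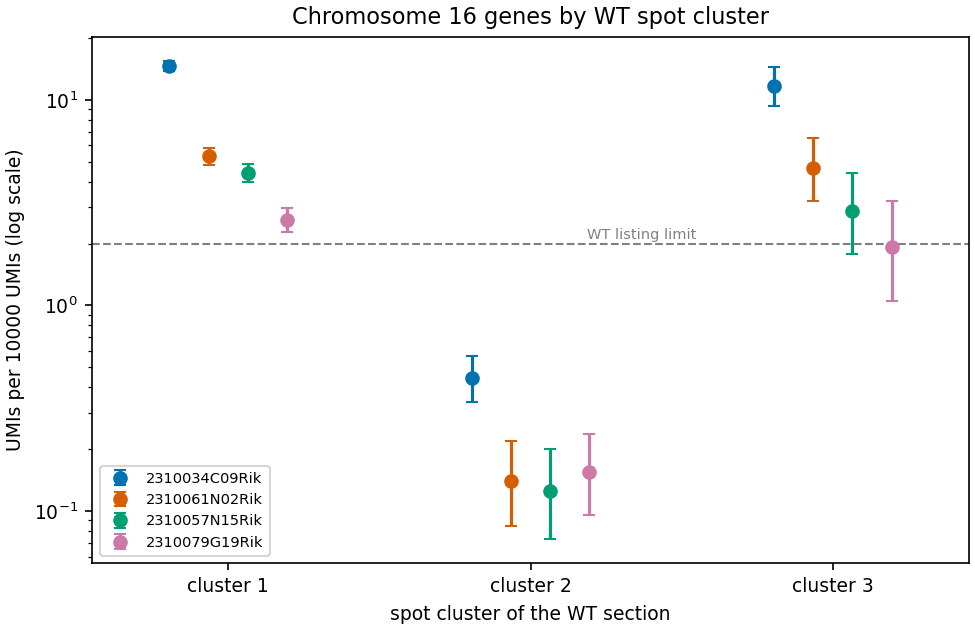
Rates of the 4 genes in the 3 spot clusters of the WT section, as UMIs per 10000 UMIs on a log axis. Points are rates, bars are 95% Poisson intervals for counting error, and the dashed line marks the WT listing limit of 1.99. All 4 genes lie above that line in cluster 1 and far below it in cluster 2, where the highest is 2310034C09Rik at 0.443.

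Per kilobase of transcript, the order of levels in WT cluster 1 was 2310034C09Rik (15.5 UMIs per 10000 per kb), 2310061N02Rik (6.71), 2310057N15Rik (4.29) and 2310079G19Rik (2.97). The ratios down that order were 2.31 (2.08 to 2.58), 1.56 (1.36 to 1.79) and 1.45 (1.22 to 1.71). Since each molecule is counted once, the same ratios were also taken of UMIs not divided by length, and were 2.76 (2.47 to 3.08), 1.21 (1.05 to 1.39) and 1.69 (1.43 to 2.0). On both scales the intervals were above 1. In cluster 3 the order was the same, but the last step, 2310057N15Rik over 2310079G19Rik, was 1.29 with an interval from 0.623 to 2.73. The step from 2310061N02Rik to 2310057N15Rik in cluster 3 depended on the scale, at 2.10 per kb (1.18 to 3.80) and 1.62 in UMIs (0.913 to 2.94). In cluster 2, per kb, only the lead of 2310034C09Rik over 2310061N02Rik, 2.65 (1.56 to 4.70), was clear of 1. The other neighbours in that order, 2310061N02Rik over 2310079G19Rik at 1.0 (0.511 to 1.96) and 2310079G19Rik over 2310057N15Rik at 1.44 (0.724 to 2.91), did not differ beyond counting error.

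The authors' deposited table gives a log2 fold change of each cluster over all other clustered spots. For cluster 1 it lists 3.84 for 2310034C09Rik, 3.81 for 2310061N02Rik, 4.01 for 2310057N15Rik and 3.38 for 2310079G19Rik in the authors' deposited table. With 1 as the minimum log2 fold change, all 4 were higher in cluster 1, as were 20.7% of the 865 listed genes, and 0 of 4 were lower, against 8.09%. For cluster 2 the values in the authors' deposited table are -5.0 for 2310034C09Rik, -5.16 for 2310061N02Rik, -5.02 for 2310057N15Rik and -3.98 for 2310079G19Rik. All 4 were lower there by at least 1 on the log2 scale, against 20.8% of listed genes, and 0 of 4 were higher, against 6.71%. Ranked from the lowest value in cluster 2, 2310061N02Rik, 2310057N15Rik and 2310034C09Rik were numbers 6, 7 and 8 of 865 in the authors' deposited table, and 2310079G19Rik was number 20. In cluster 3, 1 of 4 passed that fold (2310061N02Rik, 1.07 in the authors' deposited table), against 4.51% of listed genes, and the other 3 had values from 0.66 to 0.89. The clusters were drawn from these same counts, and all 4 genes reached the table through clusters 1 or 3 (2310079G19Rik through cluster 1 alone), so these folds describe the section and test nothing.

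The lower fold in cluster 3 than in cluster 1 goes with what each is set against. Pooled with cluster 2, cluster 3 makes up little of the rest, so that cluster 1 over clusters 2 and 3 was 14.4 (12.2 to 17.3) for 2310034C09Rik. The same ratio was 14.3 (10.8 to 19.4) for 2310061N02Rik, 16.6 (11.9 to 23.8) for 2310057N15Rik and 10.7 (7.45 to 15.7) for 2310079G19Rik. Against cluster 2 alone, cluster 3 was 26.4 times as high for 2310034C09Rik (18.7 to 37.3), 33.3 for 2310061N02Rik (18.5 to 61.8), 23.0 for 2310057N15Rik (11.6 to 46.4) and 12.4 for 2310079G19Rik (5.84 to 25.6). Cluster 3 is the smallest, with 3.19% of the section's UMIs, and skeletal muscle genes were also higher in it. Of 12 listed muscle genes, 9 reached a log2 fold change of 1 in cluster 3 (median 1.46 in the authors' deposited table), and they took 0.294% of UMIs in cluster 1, 0.241% in cluster 2 and 0.638% in cluster 3. Among the 5 defining muscle markers, none was missing from the WT table. Their part in the level of the 4 genes there was not tested.

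**Figure D2:**
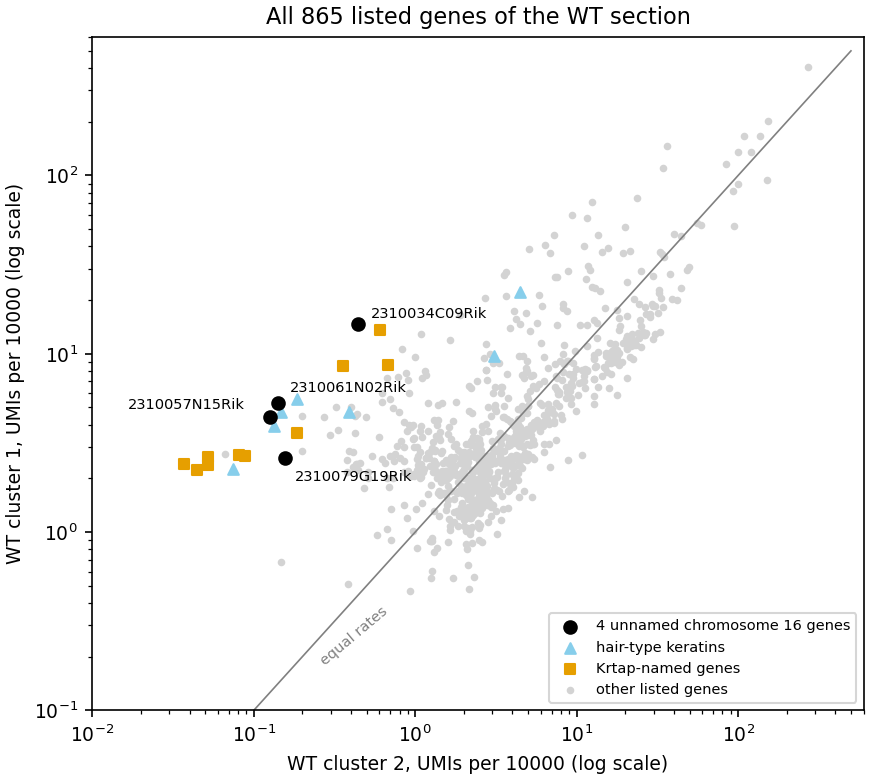
Rates of the 865 listed genes in WT cluster 1 (vertical) and WT cluster 2 (horizontal), as UMIs per 10000 on log axes, with a line of equal rates. Black points are the 4 genes, squares the Krtap-named genes, triangles the hair-type keratins and grey points all others. The 4 genes lie at the left edge of the cloud with most squares and triangles, at 2.62 to 14.7 in cluster 1 and 0.126 to 0.443 in cluster 2.

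The listed neighbours of the 4 genes were also high in WT clusters 1 and 3 and low in cluster 2. Within 1 Mb of them, 42 protein-coding genes are annotated, and 6 of these were in the WT table: the 4 genes, Krtap13-1 and Krtap13, both of which encode keratin-associated proteins. Krtap13-1 (chr16:88728862-88729611, plus strand) gave 306 UMIs in cluster 1, 25 in cluster 2 and 31 in cluster 3, or 3.57, 0.185 and 4.26 UMIs per 10000. Krtap13 (chr16:88750744-88751635, minus strand) gave 731, 48 and 52 UMIs in clusters 1, 2 and 3, or 8.54, 0.354 and 7.15 UMIs per 10000. Both lie between 2310061N02Rik and 2310034C09Rik. Their log2 fold changes in cluster 1 were 3.16 for Krtap13-1 and 3.59 for Krtap13 in the authors' deposited table.

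The locus as a whole was listed only at one end. From Krtap24-1 to Krtap11-1 it spans 960 kb with 38 protein-coding genes, and the 6 listed ones fall inside the 147 kb of the 4 genes. Of 24 protein-coding Krtap-named genes within 1 Mb, 2 were listed. Over chromosome 16, 25 genes were listed with a median log2 fold change of -0.30 in cluster 1 in the authors' deposited table. Of all 865 genes, 30 reached a log2 fold change of 3 in cluster 1 in the authors' deposited table, and the 6 of them on chromosome 16 are these 6 genes. The levels of genes outside the table are not known here.

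**Figure D3:**
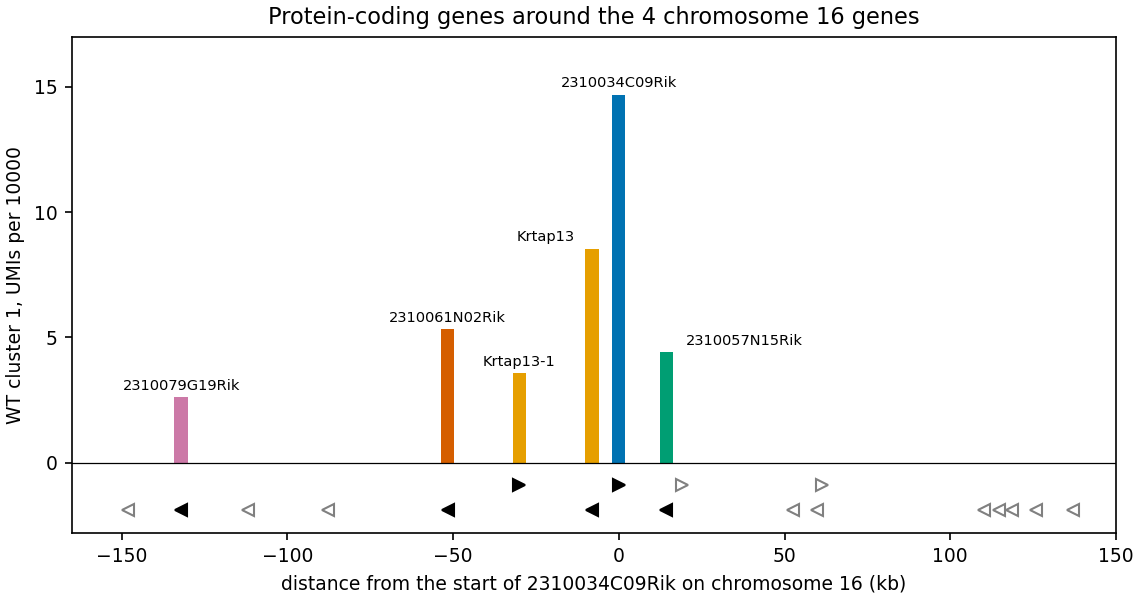
Protein-coding genes from about 150 kb before to 140 kb after the start of 2310034C09Rik on chromosome 16. Bars give the rate in WT cluster 1 in UMIs per 10000 for listed genes, and arrowheads below mark each gene and its strand, filled where listed. The 6 listed genes fall within 147 kb, with 2310034C09Rik highest at 14.7 and 2310079G19Rik lowest at 2.62.

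Set beside lists of related genes, the 4 genes resembled the keratin-associated proteins and hair keratins in WT cluster 1. Their median log2 fold change there was 3.83, from values in the authors' deposited table, against -0.18 over all 865 listed genes. All 10 Krtap-named genes were higher by at least 1, with a median of 4.00 in the authors' deposited table, from 5.24 for Krtap9-1 to 3.10 for Krtap3-3. All 7 hair-type keratins were higher too, with a median of 3.68 in the authors' deposited table, from 4.33 for Krt86 to 1.52 for Krt84. These counts rest on clusters drawn from the same genes.

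By list median, cornified genes of ordinary stratified epithelium had smaller folds in the same cluster. Single genes overlapped: Lce1i (3.24) stood above Krtap3-3 (3.10), and Krt84 (1.52) below Lce1e (2.25), in the authors' deposited table. All 18 late cornified envelope genes, whose proteins line the envelope of dead keratinocytes, were higher, with a median of 2.83 in the authors' deposited table (3.24 for Lce1i to 2.25 for Lce1e). All 11 listed genes of the small proline-rich family, which encodes other envelope proteins, were higher with a median of 1.55 in the authors' deposited table (2.84 for Sprr2k to 1.17 for Sprr2j-ps). The symbol Sprr2j-ps marks a pseudogene. Of 3 listed inner sheath and papilla structural genes, 2 were higher: Tchh, which encodes trichohyalin (2.53), and Rptn (2.30), in the authors' deposited table. Tgm3, a transglutaminase, had 0.91 in the authors' deposited table and did not reach 1. Of 4 suprabasal mucosal keratins, 2 were higher, from 2.53 for Krt76 to 0.19 for Krt4 in the authors' deposited table. None of 7 basal keratinocyte genes was higher and 4 were lower, from -0.16 for Krt14 to -1.76 for Krt15 in the authors' deposited table. None of 12 muscle genes was higher by at least 1 in cluster 1, with values from 0.40 for Acta1, the skeletal actin, to -0.48 for the tropomyosin Tpm2 in the authors' deposited table. The clone-style name is shared by 6 other listed genes, of which 3 were higher and 1 lower, from 3.40 for 2310050C09Rik to -1.35 for 2410006H16Rik in the authors' deposited table.

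Relative to cluster 1, cluster 3 rates spanned a wider range among the 10 Krtap-named genes than among the 4 genes. The rate in cluster 3 over that in cluster 1 had a median of 0.765 for the 4 genes (0.654 to 0.877), 0.596 for the 10 Krtap-named genes (0.0577 to 1.19) and 0.701 for the 7 hair-type keratins (0.313 to 0.907). Krtap9-1 held 204 UMIs in cluster 1 and 1 UMI in cluster 3, whereas Krtap13-1 had 3.57 UMIs per 10000 in cluster 1 and 4.26 in cluster 3. Krtap2-4 and Krtap4-1, the next lowest in that ratio, held 4 and 5 UMIs in cluster 3. The low ratios thus rest on few UMIs, and whether the wider range exceeds counting error was not tested. In summed level, the 4 genes took 0.270% of the UMIs of cluster 1, the 10 Krtap-named genes 0.494% and the 7 hair-type keratins 0.530%.

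The genes nearest to each of the 4 in pattern were mostly Krtap-named genes, hair-type keratins or others of the 4. Likeness was measured as the distance between the shares of the rate over the 3 WT clusters. With 3 clusters of 1 section it is a description. Shares in cluster 3 rest on few UMIs (14 for 2310079G19Rik, 15 for Lce1i). Counting error was not carried into the distances, so the order of near genes is not resolved. For 2310034C09Rik the 5 nearest of 864 were Krtap13 (distance 0.0190), Krtap3-1, Krtap3-3, 2310079G19Rik and 2310061N02Rik. For 2310061N02Rik they were the hair keratin Krt34 (0.00659), Krtap13, Psors1c2, 2310034C09Rik and Krtap3-3. For 2310057N15Rik they were Krtap1-3 (0.0178), 2310050C09Rik, Kprp (which encodes a proline-rich protein of keratinocytes), the hair keratin Krt81 and Krtap3-1. For 2310079G19Rik they were Lce1i (0.00821), Krtap3-1, the hair keratin Krt87, Krtap3-3 and 2310034C09Rik. These 20 places are filled by 14 genes, of which 4 are Krtap-named, 3 are hair-type keratins and 3 are among the 4 genes themselves.

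The coding sequences place the 4 genes among cysteine- and serine-rich proteins. Codons for cysteine made up 13.1% of 2310034C09Rik, 10.3% of 2310061N02Rik, 12.5% of 2310057N15Rik and 8.65% of 2310079G19Rik, against a median of 2.13% over 21526 coding genes. Between 98.1% and 99.3% of coding genes had a lower share than each of them. These shares are below the median of the listed Krtap-named genes (23.8%, from 9.52% to 38.5%) and above that of the listed hair-type keratins (6.47%). Serine codons made up 19.2% to 22.2% of the 4 genes, against a median of 7.89% over all coding genes. The median was 13.3% over the listed Krtap-named genes and 24.3% over the listed late cornified envelope genes. The latter were rich in cysteine codons too, with a median of 21.1%, so neither trait is particular to the 4 genes. Tyrosine codons made up 5.95% (2310079G19Rik) to 7.50% (2310057N15Rik), against a median of 2.75% over all coding genes, 1.08% over the listed Krtap-named genes and 0% over the late cornified envelope genes. Each of the 4 held 1 lysine codon, 0.467% to 0.575% of its codons, against a median of 5.36%. Krtap13 had 12.7% cysteine, 21.8% serine and 6.60% tyrosine codons, all within the ranges of the 4 genes. Krtap13-1 had 9.52% cysteine codons, also within their range, and 25.6% serine and 8.33% tyrosine codons, above it. Among the 4, 2310061N02Rik alone held 0 glutamate codons, and the other 3 had 2.70% to 4.67%.

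**Figure D4:**
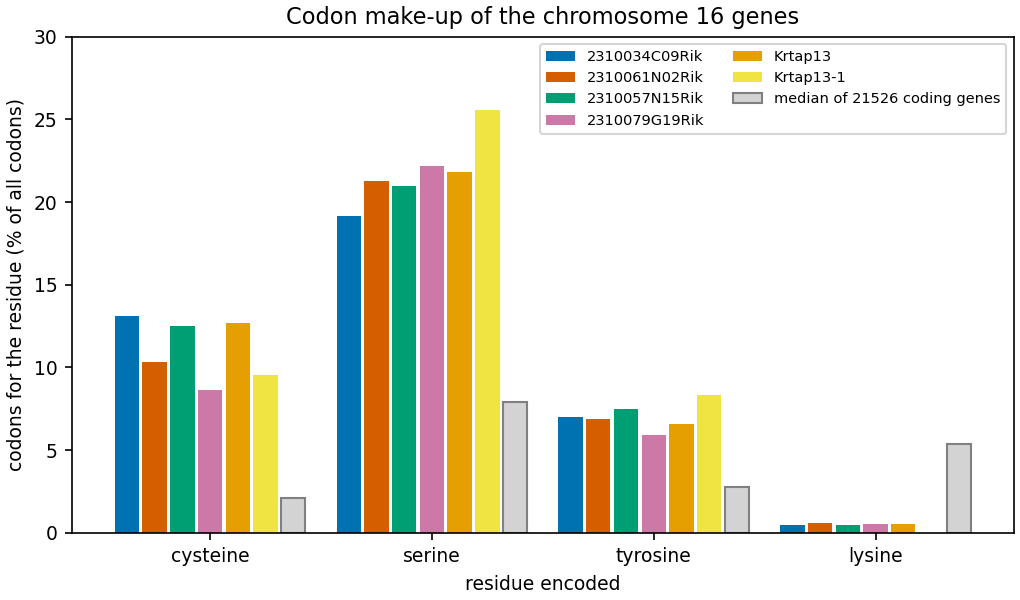
Codons for cysteine, serine, tyrosine and lysine as a percent of all codons, for the 4 genes, their listed neighbours Krtap13 and Krtap13-1, and the median of 21526 coding genes (grey). Bars are single genes with no error. The 4 genes lie above the median for the first 3 residues and below it for lysine, with 0.467% to 0.575% against 5.36%.

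Sequence identity split the 4 genes into a close pair, 1 intermediate gene and 1 distant one. The coding sequences of 2310034C09Rik and 2310057N15Rik were 83.9% identical, and those of Krtap13 were 78.9% identical to 2310034C09Rik and 87.0% to 2310057N15Rik. 2310061N02Rik was closest to Krtap13-1, at 73.9%, and shared 56.0% with 2310034C09Rik and 58.1% with 2310057N15Rik. 2310079G19Rik shared 47.3% to 49.4% with the other 5 listed genes of the locus, and a search of all transcripts found no other gene like it at an E-value of 1e-05. Upstream, 2310034C09Rik and Krtap13, which lie on opposite strands, were 76.8% identical over 250 bases with an unbroken run of 102 bases in common. 2310034C09Rik and 2310057N15Rik shared the run below, which begins 100 bases before the start of each.
shared run: catttgtaaaccaggaagcac

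Near copies bear on the counts of the close pair. 2310057N15Rik aligned to Gm5965, a neighbouring gene that was not listed, at 94.2% identity over 553 bp and to Krtap13 at 93.8% over 518 bp, and shared 233 identical bp in a row with Krtap13. At an E-value of 1e-05 its transcript had a match in 395 other genes, against 8 for 2310034C09Rik and 9 for 2310061N02Rik. The search kept a capped number of transcripts, so the 395 may be a lower bound. Its match of rank 4, 4930553J12Rik, aligned at 85.6% over 284 bp, and the rest scored no higher. The 395 is therefore not a count of near copies. 2310034C09Rik aligned to 2310057N15Rik at 85.5% over 643 bp and to Krtap13 at 86.3% over 575 bp. How reads that match several genes were counted is not given in the sources used here, so the values of 2310034C09Rik, 2310057N15Rik and Krtap13 are uncertain as to how reads were split among them and, for 2310057N15Rik, among its other matches. 2310079G19Rik lies inside Gm49688 (chr16:88608670-88638214, plus strand), a long non-coding RNA gene of the opposite strand that was not listed. The deposited metrics class 1.21% of reads in the H3K36M section and 0.902% in the WT section as antisense to a gene, so reads were sorted by strand, but how this entered the counts per gene is not stated.

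In the H3K36M section the 4 genes were not listed, and neither were Krtap13, Krtap13-1 or any other Krtap-named gene (0 of 10 of those listed for WT). Of all genes listed for WT, 32.8% were also listed for H3K36M, and of those highest in WT cluster 1, 27.3% were. Of the 10 Krtap-named genes, only 3 had a WT cluster 1 rate at or above the H3K36M listing limit. Among genes highest in WT cluster 1 with a rate there under that limit, 7.81% were listed for H3K36M. The listing limit of 7.24 UMIs per 10000 stands above the WT cluster 1 rate of 2310061N02Rik (5.33), 2310057N15Rik (4.41) and 2310079G19Rik (2.62). These 3 genes would therefore be missing from the H3K36M table even at their WT cluster 1 level, and the data do not show whether they differed between the sections.

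2310034C09Rik is the exception, since its WT cluster 1 rate of 14.7 is above that limit. The H3K36M region with most hair-type papilla transcripts was cluster 3, where 3 of 7 markers (Krt84, Krt36, Tchh) were listed and took 0.387% of UMIs, against at most 0.0460% in the other H3K36M clusters. That cluster also had the largest share of differentiated squamous markers, at 8.08% of UMIs. At the WT cluster 1 rate, 285 UMIs of 2310034C09Rik would stand in H3K36M cluster 3, where 140 are needed for a listing. If the table lists every gene whose average reached 1, its rate in H3K36M cluster 3 was at most 0.493 times that in WT cluster 1 (0.467 to 0.522). That interval holds the counting error of the WT rate only, not that of the unseen H3K36M count. The bound also rests on the inferred median UMIs of clustered spots. Over whole sections, the same bound is 1.18 times the WT rate, which is above 1 and does not separate the sections. For the other 3 genes the bound for cluster 3 was 1.36 (2310061N02Rik), 1.64 (2310057N15Rik) and 2.77 (2310079G19Rik), all above 1.

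Other genes give the scale of that bound. Among 53 genes highest in WT cluster 1 with a rate at or above that of 2310034C09Rik, 43 (81.1%) were in the H3K36M table. For those 43, the rate in H3K36M cluster 3 over that in WT cluster 1 had a median of 0.599, from 0.00532 to 1.49, and 15 of them (34.9%) were below 0.493. The other 10 of the 53, 2310034C09Rik among them, were not listed, and the same bound puts each at or below 0.493 too. A ratio under that bound was thus common among these genes. Of the 7 hair-type keratins listed for WT, 2 were listed in both tables, and these stood near 1. Only these 2 had a WT cluster 1 rate at or above the H3K36M listing limit. The others would be missing from the H3K36M table even at their WT level. A low ratio could also have kept Krt84 out of that table, so the 2 ratios do not speak for hair-type keratins as a set. Krt84 had 10.7 UMIs per 10000 in H3K36M cluster 3 (9.27 to 12.2) and 9.69 in WT cluster 1 (9.05 to 10.4), a ratio of 1.10 (0.941 to 1.28). Krt36, named after its values were seen, had 20.4 (18.4 to 22.5) in H3K36M cluster 3 and 22.2 (21.2 to 23.2) in WT cluster 1, a ratio of 0.919 (0.823 to 1.03). Tchh had 7.63 in H3K36M cluster 3 and 16.4 in WT cluster 1, a ratio of 0.465 (0.390 to 0.551).

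The steepest genes of WT cluster 1 were all missing from the H3K36M table. Of the 30 genes that reached a log2 fold change of 3 in WT cluster 1 in the authors' deposited table, 0 were listed for H3K36M. Only 6 of the 30 had a WT cluster 1 rate above the H3K36M limit, namely 2310034C09Rik (14.7), Krtap3-1 (13.6), Kprp (10.6), Krtap3-3 (8.61), Krtap13 (8.54) and Lce1g (7.28). Of all 94 genes highest in WT cluster 1 with a rate above that limit, 67% were listed. These 94 are not matched to the 6 for level. They include 53 genes with a rate at or above that of 2310034C09Rik, the highest of the 6, and 81.1% of those were listed. The share listed was therefore under 67% among genes with lower rates, nearer the limit. Whether the 6 genes were missing more often than genes of like level was not tested. With 1 section per genotype, genotype cannot be told apart from the animal, the position of the section and its depth. In tissue sections, fewer cells with these transcripts and less RNA per cell cannot be told apart either.

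**Figure D5:**
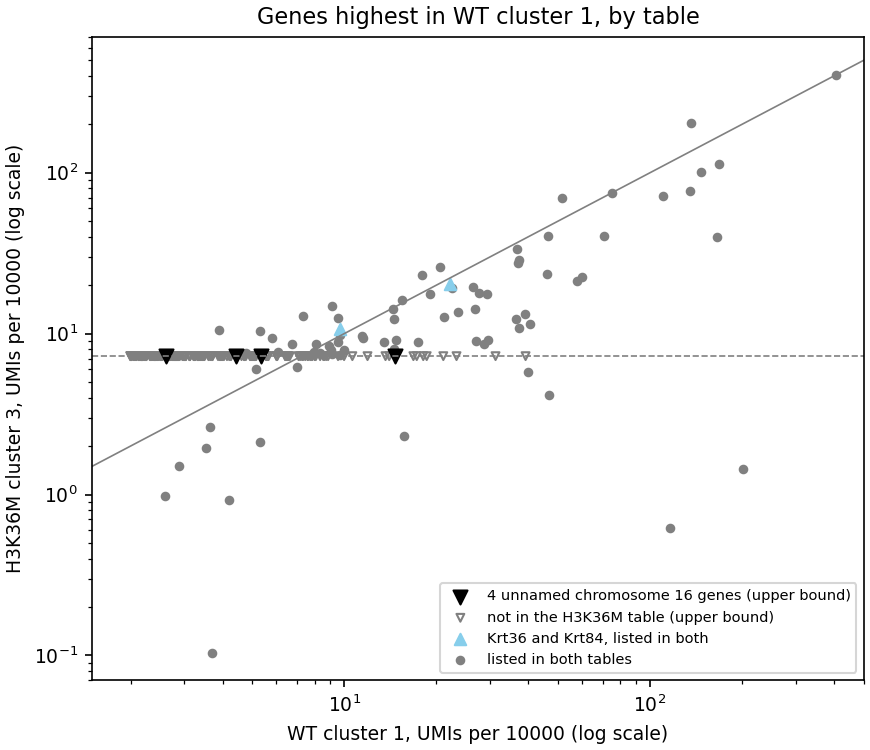
Genes highest in WT cluster 1, by their rate in H3K36M cluster 3 (vertical) and WT cluster 1 (horizontal), in UMIs per 10000 on log axes, with a line of equal rates. Filled grey points and light triangles are genes listed in both tables. Inverted triangles are genes missing from the H3K36M table, drawn at the listing limit of 7.24 as an upper bound, with the 4 chromosome 16 genes in black. Of those 4, only 2310034C09Rik, at 14.7, lies to the right of the point where the limit meets the line of equal rates.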

How the data were processed

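Visium data of 1 H3K36M and 1 WT tongue section were used, grouped by sample title. The submitters' processing notes name Space Ranger and the build GRCm38 (mm10); version, gene annotation and the handling of reads that match several genes were not stated. The authors' metrics table holds each count of spots, reads and genes, signal values per spot, and each quality measure as a fraction, printed here as a percent. Per the file headers, the deposited cluster tables hold 3 columns per cluster, namely the average (a signal), the log2 fold change and the p-value; whether the deposited p-value is adjusted is not stated, and it served only as an added criterion in an alternative.

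Each average equalled a whole number of UMIs (all within 0.01) over a single divisor per cluster, and each fold change that of the cluster over the other clustered spots with 1 UMI added to each side. The smallest multiple of 0.5 that made all totals whole was taken for the median UMIs of clustered spots (1380.5 in H3K36M, 5027 in WT). The metrics give 763.5 and 4899, so rates rest on this reading. Rates have exact Poisson intervals, ratios exact conditional intervals and shares Wilson intervals, all at 95%. For the H3K36M bounds, the fixed limit was divided by the Poisson interval of the WT rate. UMI recovery and intervals were tried on simulated tables made with the same formula and Poisson counts. This checks the calculation only, and cannot show whether counts in the sections follow the Poisson model.

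Gene models came from GENCODE M21 (all 865 and 298 identifiers matched), promoters from RefSeq (4 of 4 genes matched). The nearest transcripts were found with blastn 2.17.0, and other steps used Python 3.11 with biopython, numpy, pandas, scipy and matplotlib. Protein sequences were not used here; residues were read from codons. Named genes are the 4 genes, the 5 listed genes nearest to each in pattern, listed genes within 1 Mb, the highest and lowest gene of each list in cluster 1, and Krt14; others named were chosen after their values were seen. The 4 genes and the lists were chosen with earlier results of these data known. No test was run, since the spots come from 1 section per genotype. Alternatives were other denominators, references, thresholds, a likeness measure, cluster pairs and undivided UMIs.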

Additional observations from a re-analysis of the deposited data

How the results depend on the processing

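With the 10 genes with most UMIs left out of the totals, the rates in WT cluster 1 were 17.5 (2310034C09Rik), 6.34 (2310061N02Rik), 5.25 (2310057N15Rik) and 3.11 (2310079G19Rik) UMIs per 10000; their order did not change. The 8 rates in clusters 2 and 3 under that setting, and all 12 rates without mitochondrially encoded and muscle UMIs, stayed within their counting intervals. The ratio of cluster 1 to the rest moved with its reference. Against cluster 3 alone it was 1.26, 1.14, 1.53 and 1.36 for the genes in the same order, and from deposited averages with clusters weighted equally it was 2.42, 2.21, 2.93 and 2.52. For the same genes the H3K36M bound was 0.493, 1.36, 1.64 and 2.77 for H3K36M cluster 3 over WT cluster 1, in place of 1.18, 3.25, 3.98 and 6.39 for whole sections. With distances between centred log2 rates, 1, 2, 2 and 3 of the 5 nearest genes were kept. Ratios of UMIs not divided by transcript length, added after the data were seen, were 77.2% to 119% of those per kb; the interval of 2310061N02Rik over 2310057N15Rik in cluster 3 then held 1.

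Counts over all listed genes moved with the threshold. With a minimum log2 fold change of 2, in place of 1, 74 were higher in WT cluster 1 (in place of 179), 0 in cluster 2 (in place of 58) and 4 in cluster 3 (in place of 39), and 83 were lower in cluster 2 (in place of 180). At a minimum of 0.5, 297 were higher in cluster 2 and 145 in cluster 3. Among genes with an average of at least 2, 101, 33 and 20 were higher in clusters 1, 2 and 3, and 102 were lower in cluster 2. With a deposited p-value under 0.05 as well, 22 were higher in cluster 3. Of the 4 genes, 0 were higher in cluster 3 at a minimum of 2 and 4 at a minimum of 0.5; the cause was not tested. The count of 4 higher in cluster 1 stayed at 4 under other fold thresholds and the p-value, and was 3 with an average of at least 2. The TATATAA word, added after the promoters were read, raised the number of genes with a TATA box to 4, in place of 3.

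No paired analysis was possible because there is 1 section per genotype. Depth sets what can be seen: 3 of the 4 genes were below the H3K36M limit at their WT level, cluster 3 rates rest on 14 to 85 UMIs, and intervals hold no spread between animals or spots.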
